A study of Mus musculus with 6 samples.

Results

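Calcium buffers and the pumps and exchangers that remove calcium from the cytosol were followed in the mouse cochlear nucleus, the brainstem nucleus in which auditory nerve fibres end. The 10 genes considered were Calb1, Calb2, Pvalb, Atp2b1, Atp2b2, Atp2b3, Atp2b4, Atp2a2, Slc8a1 and Slc8a2, and their members were all probe sets that the array annotation assigned to 1 of these symbols and to no other. This gave 15 of 22690 probe sets, for 7 of the 10 genes. No probe set was matched to Atp2b1, Atp2b3 or Atp2b4, which were not analysed here. Of the 15 probe sets, 12 probe sets for 6 genes had a mean log2 value above 4 over the 6 arrays and were tested, while 2 of the 3 probe sets of Slc8a1 and the only one of Slc8a2 were dimmer and are described without a test.

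The samples were cochlear nuclei of mice at postnatal day 21 whose cochlea on 1 side had received tetrodotoxin, a sodium channel blocker that silences the auditory nerve, from an osmotic pump for 24 h. Nuclei of the infused side (ipsilateral, 3 arrays) were compared with nuclei of the opposite side (contralateral, 3 arrays), to ask which transcripts depend on nerve activity. For each array, total RNA came from the pooled nuclei of 10 to 12 mice, and the replicate number was read as joining both sides of 1 pool. The labels give no strain or genotype, and both groups came from infused mice, so the contralateral nucleus is not an untreated control. Values are log2 GCRMA signals per probe set, in which a difference of 1 is a doubling. The array medians lay between 5.86 and 5.91. Precision is limited by the small number of arrays: with 3 against 3, the lowest two-sided p of an exact permutation test is 0.1.

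Calcium that enters a neuron during firing is first bound by cytosolic buffer proteins and is then removed. Calbindin (Calb1), calretinin (Calb2) and parvalbumin (Pvalb) are EF-hand buffers that differ in speed and in the neurons that make them. Plasma membrane calcium ATPases (Atp2b genes) and sodium-calcium exchangers (Slc8a genes) move calcium out of the cell, and the SERCA pump Atp2a2 moves it into the endoplasmic reticulum. Auditory brainstem neurons fire at high rates and are known for high levels of these buffers, and in the dorsal cochlear nucleus calbindin marks the cartwheel cells, which resemble cerebellar Purkinje cells.

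Marker RNA of other cell types was unequal between the arrays. Choroid plexus markers, of which 8 of 11 listed genes could be tested, averaged 7.41 to 8.18 on the contralateral arrays, 9.19 on ipsilateral array 1 and 4.87 and 5.09 on ipsilateral arrays 2 and 3, which therefore stand apart. Markers of cerebellar granule, Purkinje and cartwheel cells (11 of 13 tested, 6 of them lower ipsilaterally, 0 at an unadjusted limma p under 0.05) averaged 9.02 to 9.39 contralaterally and 8.90 to 9.43 ipsilaterally, and neuron markers (10 of 12 tested) averaged 10.43 to 10.75 and 10.39 to 10.85. Of 8 listed cochlear nucleus genes 5 could be tested, with averages of 6.87 to 7.08 on all arrays, and Slc6a5, the glycine transporter of its inhibitory neurons, was at or below the minimum mean of 4. Microglia markers were higher ipsilaterally for 9 of 10 genes tested (median log2 difference 0.17). Of these 10, 3 had an unadjusted limma p under 0.05 and 4 had separate sides, beside 2.38% and 6.26% of all probe sets tested. The microglia averages were 6.95, 6.99 and 7.15 on contralateral arrays 1 to 3 and 7.25, 7.24 and 7.16 on ipsilateral arrays 1 to 3, so pair 3 hardly differed. Oligodendrocyte markers were higher for 6 of 6 (median 0.13) and astrocyte markers for 6 of 8 (0.05), while endothelial markers were lower for 4 of 7 (0.00), with 0 at an unadjusted limma p under 0.05 in each of these lists. In pooled tissue, fewer cells of a type and less RNA per cell cannot be told apart.

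Among the buffers and pumps, calbindin measured lower on the infused side, without passing adjustment, and the other tested genes had overlapping sides. No member passed the adjusted threshold of limma over all 15298 probe sets tested (smallest adjusted p = 1.00), nor did any other probe set, so the background share called was 0%. At an unadjusted limma p under 0.05 there were 2 of 12 member probe sets, both of Calb1 and both lower ipsilaterally, beside 2.38% of all probe sets tested (1.22% lower, 1.16% higher). The sides did not overlap for the same 2 of 12, beside 6.26% of all probe sets. Both read 1 transcript, and the members were chosen with earlier results of these data known. The member counts therefore do not measure an enrichment over these shares. The median difference was -0.06 over the 12 and -0.01 over all, and the median size of the difference, whatever its sign, was 0.06 and 0.08. Without contralateral replicate 1 or 3, ipsilateral replicate 1, or replicate 1 or 3 of both sides, the count of 2 was 1, since only the brighter probe set of Calb1 stayed below 0.05.

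**Figure D1:**
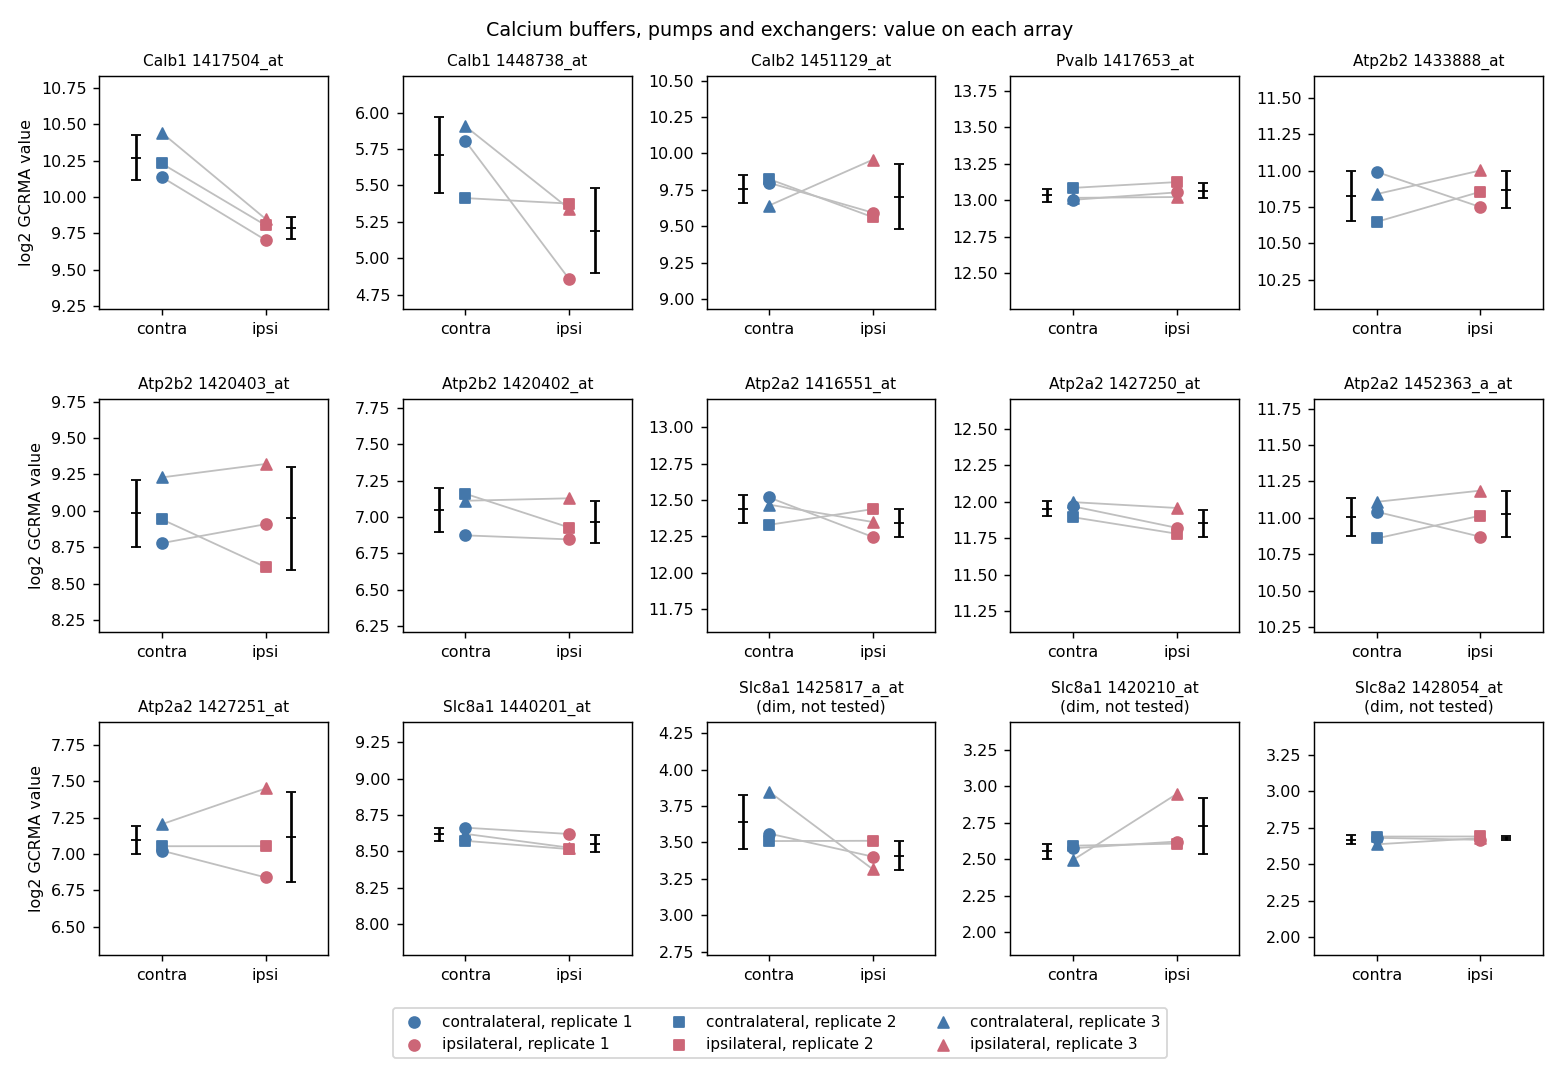
Log2 GCRMA value (vertical axis, with the same span in every panel) of the 15 member probe sets on the 3 contralateral arrays (blue) and the 3 ipsilateral arrays (red), with grey lines joining replicate numbers and black bars showing the mean ± SD of a side. Among the tested probe sets the sides are separate in both Calb1 panels and overlap in the other 10.

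Calb1, whose product calbindin is a fast buffer of Purkinje and cartwheel cells, was read by 2 probe sets annotated to the same source sequence, which are therefore 2 views of 1 transcript. The brighter one (1417504_at) read 10.14, 10.23 and 10.44 on contralateral arrays 1 to 3 and 9.70, 9.81 and 9.85 on ipsilateral arrays 1 to 3. All 3 ipsilateral values thus lay below the lowest contralateral one. The side means were 10.27 ± 0.16 and 9.79 ± 0.07 (SD, n = 3 each), a log2 difference of -0.48 (SE 0.11, 95% interval -0.75 to -0.22), or 1.40-fold less signal ipsilaterally (limma unadjusted p = 0.00341, adjusted p = 1.00). The pairs differed by -0.43, -0.42 and -0.59, lower in 3 of 3. By unadjusted p this probe set ranked 17 among the 8754 genes tested, each taken by its brightest probe set, and 1.22% of all tested probe sets differed by as much or more in either direction.

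The dimmer Calb1 probe set (1448738_at) read 5.81, 5.41 and 5.91 contralaterally and 4.86, 5.38 and 5.34 ipsilaterally. Its sides were also separate, but the gap between contralateral array 2 and ipsilateral array 2 was small, at -0.04, against -0.95 and -0.57 in the other pairs. The difference was -0.52 (SE 0.19, 95% interval -0.97 to -0.07, limma unadjusted p = 0.0296, adjusted p = 1.00). The size was thus close to that of the brighter probe set, with a wider spread.

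Calb1 was set beside the choroid plexus marker level of the ipsilateral arrays. The brighter probe set read 9.70 on array 1, where those markers averaged 9.19, and 9.81 and 9.85 on arrays 2 and 3, where they averaged 4.87 and 5.09. The dimmer probe set read 4.86 on array 1 and 5.38 and 5.34 on arrays 2 and 3, a gap about as large as its difference between sides. For the brighter probe set the difference was -0.54 with the choroid plexus average as a covariate (limma unadjusted p = 0.00530). For ipsilateral array 1 alone against the contralateral arrays it was -0.57, with no spread on the ipsilateral side. That array does not match them in choroid plexus level, at 9.19 against 7.41 to 8.18. With the average of the cerebellar and cartwheel markers as a covariate the difference of the brighter probe set was -0.46 (limma unadjusted p = 0.00281). That list joins granule cell markers with Purkinje and cartwheel cell markers, so its average cannot stand for the level of 1 cell type. Its 11 tested genes went both ways, with a median difference of 0.00, and the direction largely followed the cell type. The Purkinje and cartwheel cell genes had lower ipsilateral means, as Calb1 did. They were Car8 (-0.31), Pcp2 (-0.30), Slc1a6 (-0.25), Ppp1r17 (-0.20) and, by under 0.01, Pcp4. Of the granule cell genes, Zic2 was lower (-0.09). The others were higher, namely Cbln1 (0.14), Neurod1 (0.14), Cbln3 (0.13), Gabra6 (0.07) and Zic1 (0.05). Car8, a carbonic anhydrase-related protein that binds the inositol trisphosphate receptor, the glutamate transporter gene Slc1a6 and Zic2 were lower in 3 of 3 pairs. With the replicate number as a block their unadjusted limma p was 0.0212, 0.0498 and 0.351 (adjusted p = 0.991 for each). Without the block it was 0.0892, 0.238 and 0.652. Across all probe sets, the values bear out the pairing behind that block for replicate 3 only. The part of cell content in the Calb1 difference beyond these covariate values was not tested.

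**Figure D2:**
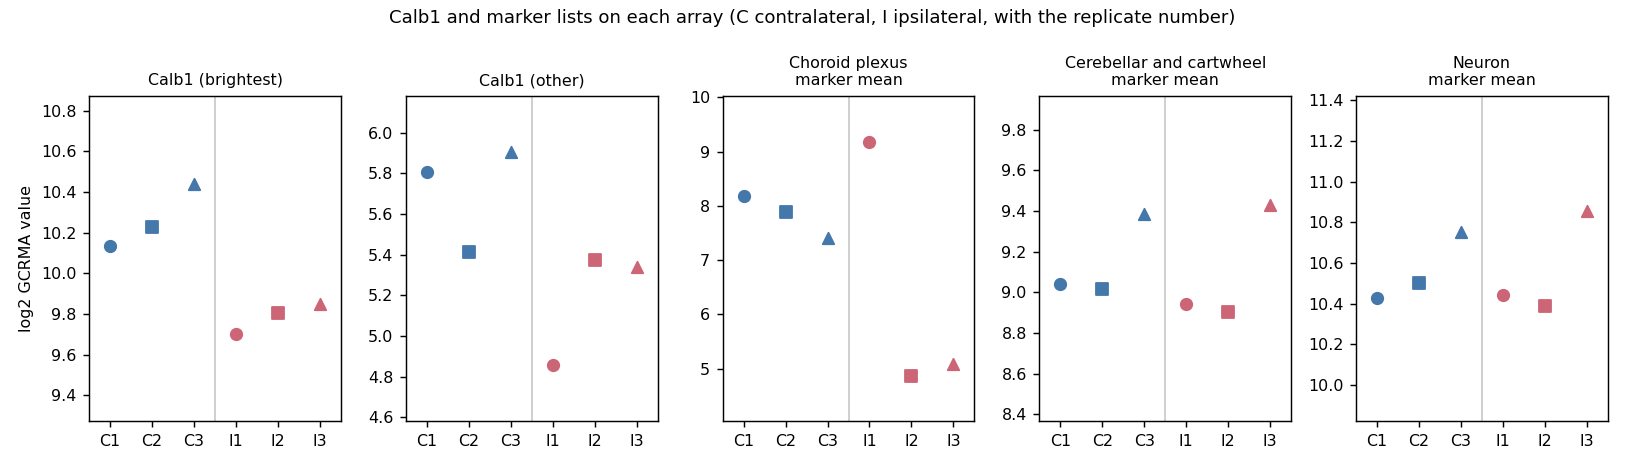
Log2 GCRMA values on each array for both Calb1 probe sets and for the means of 3 marker lists; C and I mark contralateral and ipsilateral arrays with their replicate number, and the choroid plexus axis has a wider span than the others. The choroid plexus mean separates ipsilateral array 1 (9.19) from arrays 2 and 3 (4.87 and 5.09), while the brighter Calb1 probe set reads 9.70 to 9.85 on all of these.

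**Figure D3:**
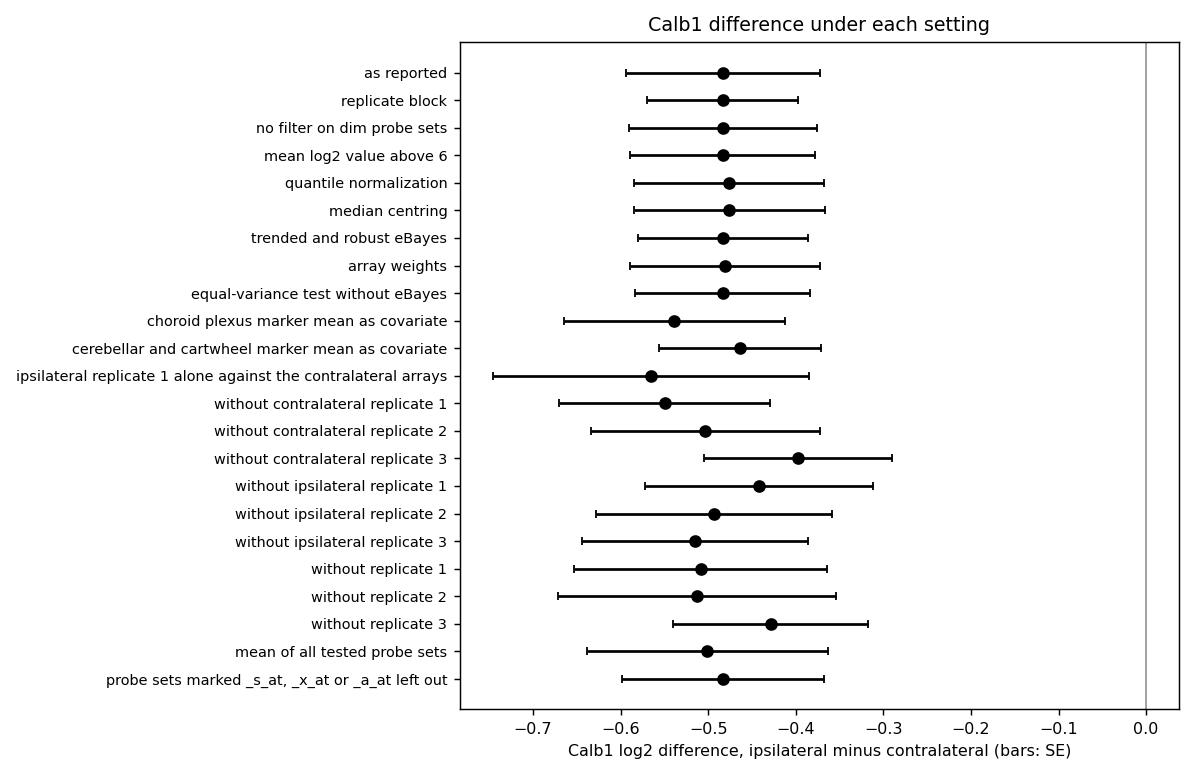
Log2 difference of the brighter Calb1 probe set (horizontal axis, ipsilateral minus contralateral, bars showing the SE) as reported and under each other setting. The setting that takes the mean of all tested probe sets joins both Calb1 probe sets. The difference lies between -0.57 and -0.40 in all of them.

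Across the 6 arrays, the genes whose pattern was most like that of Calb1 among the other tested genes were Gyg, the glycogenin that primes glycogen synthesis, the tubulin gene Tubb2a, Tmem41a, the Golgi protein gene Golim4 and the tropomyosin gene Tpm4, with Pearson correlations of 0.98, 0.97, 0.97, 0.96 and 0.95. These were the highest of the 8753 genes ranked, and arrays of 1 side share their treatment. Their differences were smaller than that of Calb1, at -0.19 for Gyg, -0.23 for Tubb2a, -0.22 for Tmem41a, -0.35 for Golim4 and -0.15 for Tpm4.

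Calb2 encodes calretinin, a buffer of auditory nerve endings, granule cells and unipolar brush cells. Its probe set (1451129_at) read 9.80, 9.82 and 9.64 contralaterally and 9.59, 9.56 and 9.96 ipsilaterally. Pairs 1 and 2 were lower on the infused side, by -0.21 and -0.26, and pair 3 was higher by 0.32, so the sides overlapped. The difference of -0.05 (SE 0.13, 95% interval -0.37 to 0.26, limma unadjusted p = 0.715) was smaller than the spread of the ipsilateral arrays (SD 0.22).

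Pvalb encodes parvalbumin, a slow buffer of many fast-firing neurons. The values of its probe set (1417653_at) were 13.002, 13.084 and 13.016 contralaterally and 13.053, 13.124 and 13.021 ipsilaterally. The arrays differed little, and the infused side was higher in 3 of 3 pairs by 0.05, 0.04 and 0.01. The mean difference of 0.03 had a 95% interval of -0.17 to 0.24 (limma unadjusted p = 0.718), so a change of the size seen for Calb1 lay outside the interval.

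The difference of Calb1 was set against that of each other tested gene by subtracting the log2 values within an array. Against Pvalb it was lower by -0.52, against Calb2 by -0.43, against Atp2b2 by -0.53, against Atp2a2 by -0.39 and against Slc8a1 by -0.42, each with separate sides and lower in 3 of 3 pairs. Each of these 5 comparisons gave a two-sided p of 0.1 in an exact permutation test (0.1 after Benjamini-Hochberg adjustment over the 5), the smallest value that 3 against 3 arrays allow. All 5 used the same Calb1 values, whose sides were already separate, so they add no independent evidence for the Calb1 difference.

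Atp2b2 encodes PMCA2, the plasma membrane calcium pump whose loss makes mice deaf and unsteady, and which is abundant in hair cells and in cerebellar neurons. The brightest of its 3 probe sets (1433888_at) read 10.991, 10.647 and 10.838 contralaterally and 10.749, 10.855 and 11.001 ipsilaterally. The sides overlapped, and pair 1 went the other way from pairs 2 and 3. Its difference was 0.04 (SE 0.12, 95% interval -0.25 to 0.34, limma unadjusted p = 0.740). The other probe sets, both annotated to 1 reference transcript, differed by -0.04 (1420403_at) and -0.08 (1420402_at). The first of them read 8.78, 8.94 and 9.23 contralaterally and 8.91, 8.61 and 9.32 ipsilaterally, a spread within sides (SD 0.23 and 0.36) that exceeded the difference between them.

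Atp2a2 encodes SERCA2, the pump that refills the endoplasmic reticulum, and had 4 probe sets. The brightest (1416551_at) read 12.52, 12.33 and 12.47 contralaterally and 12.25, 12.44 and 12.35 ipsilaterally. It was lower in pairs 1 and 3 and higher in pair 2, with a difference of -0.09 (95% interval -0.33 to 0.14, limma unadjusted p = 0.378). The next (1427250_at) read 11.97, 11.89 and 12.00 against 11.82, 11.78 and 11.96, lower in 3 of 3 pairs with overlapping sides. Its mean difference was -0.10 (limma unadjusted p = 0.315). Both remaining probe sets, 1452363_a_at and 1427251_at, differed by 0.02, so the 4 probe sets did not share a direction.

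Slc8a1 encodes the sodium-calcium exchanger NCX1. Its bright probe set (1440201_at) read 8.66, 8.57 and 8.62 contralaterally and 8.62, 8.52 and 8.53 ipsilaterally. The infused side was lower in 3 of 3 pairs by at most 0.09, and the sides overlapped. The mean difference was -0.07 (SE 0.09, 95% interval -0.27 to 0.14, limma unadjusted p = 0.475). The untested probe sets of Slc8a1 read 3.51 to 3.85 contralaterally and 3.32 to 3.51 ipsilaterally (1425817_a_at), and 2.49 to 2.59 and 2.61 to 2.95 (1420210_at), in opposite directions. Slc8a2, which encodes the exchanger NCX2, read 2.64 to 2.69 contralaterally and 2.67 to 2.69 ipsilaterally (1428054_at), below the minimum mean on every array.

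**Figure D4:**
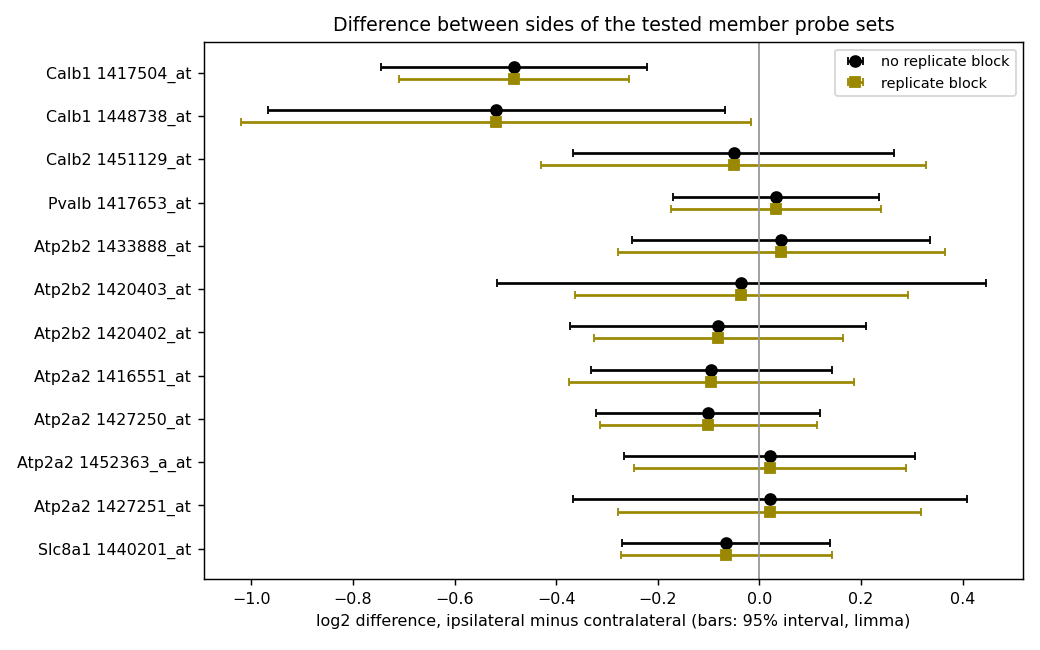
Log2 difference between sides (horizontal axis, ipsilateral minus contralateral) of the 12 tested member probe sets, with 95% intervals of limma without (black circles) and with (olive squares) the replicate number as a block. The intervals of both Calb1 probe sets end below 0 in both fits, and the other 10 points lie between -0.10 and 0.04 with intervals that include 0.

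Taken without Calb1, 6 of the 10 member probe sets tested were lower and 4 higher, between -0.10 and 0.04, with unadjusted limma p from 0.315 to 0.903. Their 95% intervals ran from -0.52 at the lowest to 0.45 at the highest, and both ends were those of the Atp2b2 probe set 1420403_at. Differences within the interval of each probe set remain compatible with these arrays.

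Other genes of calcium handling were taken from 3 lists, and 30 of their 50 genes could be tested. At an unadjusted limma p under 0.05 there was 1 of 30 genes (3.33%), beside 2.38% of all probe sets, and 0 passed after adjustment. This was Casq2, which encodes the calcium-binding calsequestrin of the store lumen. It read 5.78, 5.34 and 5.89 contralaterally and 5.34, 4.95 and 5.34 ipsilaterally. It was lower in 3 of 3 pairs, and the sides overlapped only in that the lowest contralateral and the highest ipsilateral value were both 5.34. Its difference was -0.46 (95% interval -0.89 to -0.03, limma unadjusted p = 0.0387, adjusted p = 1.00).

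Of the calcium stores and store-operated entry genes 7 were higher and 9 lower, with a median of -0.03. Ryr2, a release channel of the endoplasmic reticulum, differed by 0.02, and Orai1, the pore of store-operated entry, by -0.29 (95% interval -0.75 to 0.17). Of the other buffers and EF-hand binders 5 of 8 were higher (median 0.03). The smallest p among them was that of Necab2, a neuronal EF-hand protein (limma unadjusted p = 0.256), and its difference of 0.49 came from ipsilateral array 2 at 7.70, while the other 5 arrays read 6.12 to 6.34. Of the other pumps, exchangers and pump subunits 4 of 6 were higher (median 0.05). The smallest p was that of Slc24a3, a potassium-dependent sodium-calcium exchanger, which read 8.53, 8.41 and 8.55 contralaterally and 8.62, 8.61 and 8.71 ipsilaterally. Its sides were separate and its difference was 0.15 (95% interval -0.07 to 0.36, limma unadjusted p = 0.143). Nptn, whose product neuroplastin is a subunit of the plasma membrane calcium pumps, differed by 0.02, and Bsg, which encodes the related subunit basigin, by -0.17.

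**Figure D5:**
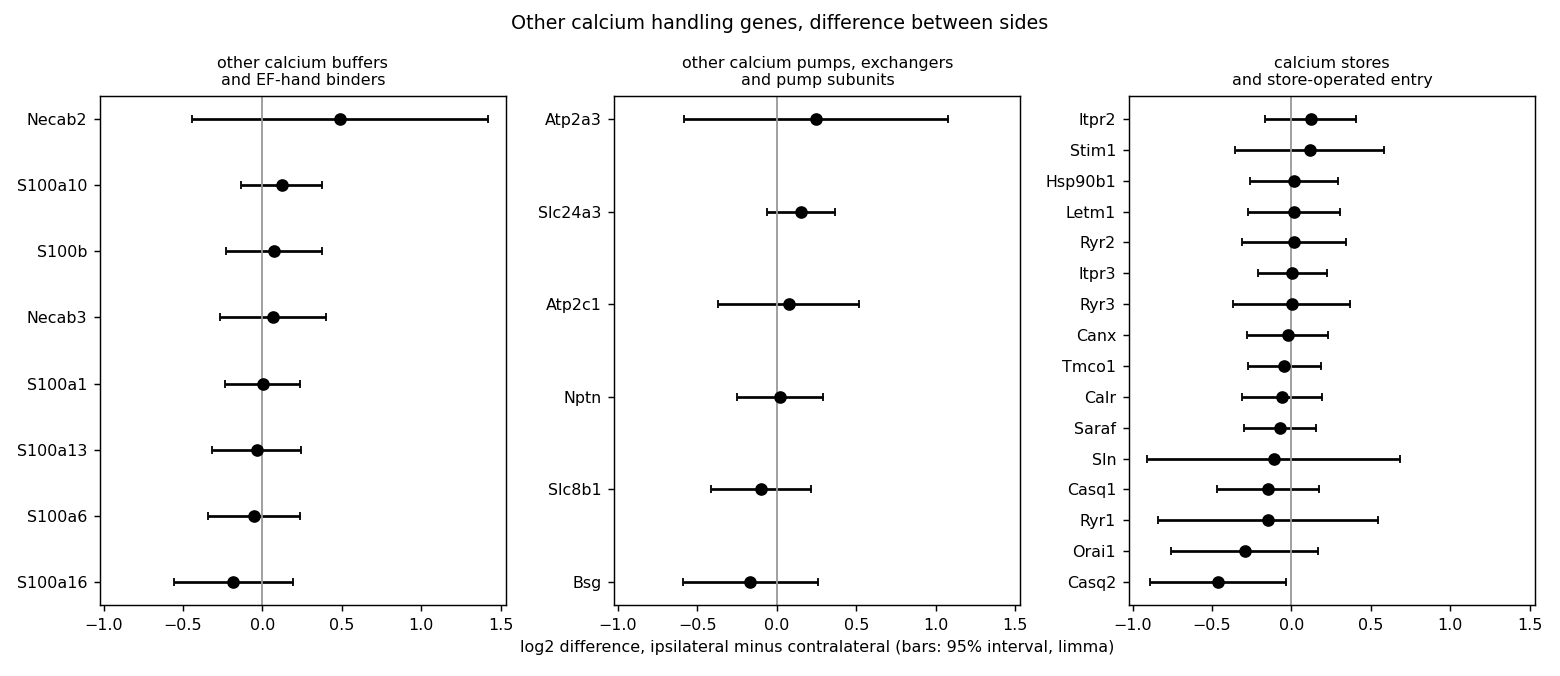
Log2 difference between sides (horizontal axis, ipsilateral minus contralateral, with 95% intervals of limma) of 30 further calcium handling genes in 3 lists, each gene by its brightest tested probe set. The interval of Casq2 alone excludes 0, and the widest interval among the buffers is that of Necab2.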

How the data were processed

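Messenger RNA was measured on 6 Affymetrix arrays, 3 per side, grouped by the sample descriptions. The authors deposited log2 GCRMA values per probe set; GCRMA is named in the submitters' processing notes, with no version or settings given in the sources used here, and the range of the values, 1.40 to 16.0, was taken to show a log2 scale. GCRMA corrects background and normalizes between arrays, which compresses dim signals and removes shifts common to most genes. Genes were named from the platform annotation. Of 22690 probe sets, 64 controls and 7328 with a mean at or below 4 were left out, which left 15298.

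Sides were compared with limma 3.58.1 (lmFit, eBayes, under R 4.3.3) over all 6 arrays without a replicate block. Benjamini-Hochberg adjustment covered 15298 probe sets, with a threshold of 0.05. On simulated data with 200 of 15298 probe sets changed (5 runs), this fit recovered 68.4% of changes of log2 size 1 and 93.8% of those of size 2. Of the calls, 4.59% were false. These rates hold for that number of changed probe sets only. Recovery of a difference as small as that of Calb1 was not measured. The members and gene lists were chosen with earlier results of these data known. All members were named. Of each pathway list up to 3 genes per direction with the smallest unadjusted p under 0.05 were to be named, otherwise the gene of smallest p, and for Calb1 the 5 genes of highest correlation. Ryr2, Orai1, Nptn, Bsg and the single marker genes fall outside this rule and were chosen after their values were seen. Same-numbered samples were read as both sides of 1 pool of mice, from the design text, and their deviations from the side means correlated at 0.09, 0.04 and 0.57 for replicates 1, 2 and 3, against 0.30 for contralateral 1 with ipsilateral 2 and 0.19 for contralateral 2 with ipsilateral 1, so the values bear out the pairing for replicate 3 and not for replicates 1 and 2. Alternatives were the replicate block, other filters, normalizations and variance models, marker levels as covariates, other choices of probe set, and leaving out arrays.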

Additional observations from a re-analysis of the deposited data

How the results depend on the processing

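Calb1 stayed lower on the infused side in 22 of 22 alternatives (-0.57 to -0.40), and no member passed adjustment in any. The brighter probe set was used, except in the mean of all tested probe sets, which joined both. Because its sides were separate, leaving out arrays or pairs could not reverse its direction. The replicate block, the filters and the variance models left the difference at -0.48 and changed only its error. In limma fits with more than 1 ipsilateral array the unadjusted p was 0.00118 to 0.0233 (adjusted p at least 0.988). In the equal-variance test without eBayes it was 0.00844. The count of member probe sets at an unadjusted p under 0.05 was 1 with a minimum mean of 6, which removes the dimmer Calb1 probe set, 1 in the equal-variance test without eBayes, and 1 to 2 when arrays or pairs were left out. Over all probe sets, the count at an unadjusted p under 0.05 was 364 as reported, 569 with the replicate block, 233 with a minimum mean of 6, and 300 to 524 when arrays or pairs were left out. In alternatives chosen after seeing the data it was 638 with the cerebellar marker covariate and 571 for ipsilateral replicate 1 alone against the contralateral arrays. The adjusted count was 0 to 5 when arrays or pairs were left out, with 5 when ipsilateral replicate 1 was omitted and 2 when both samples numbered 1 were, with no member among them. The replicate block moved 0 member probe sets across an unadjusted limma p of 0.05 and 4 listed genes below it (Car8, Slc1a6, Sox9 and Kdr), none after adjustment. Across all probe sets, samples with different replicate numbers correlated between -0.37 and 0.30 in their deviations from the side means, so only replicate 3 of both sides correlated best with its own number.

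Small differences changed sign. Atp2b2 gave -0.0087 with array weights, -0.010 with the choroid plexus covariate, -0.024 as the mean of its probe sets, -0.076 for ipsilateral replicate 1 alone, and -0.046 to 0.185 when arrays or pairs were left out. Calb2 ranged from -0.23 to 0.055 when arrays or pairs were left out, and Slc8a1 gave 0.00066 for ipsilateral replicate 1 alone. None of these passed an unadjusted p of 0.05, and the cause was not tested.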

Other observations

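Both arrays of replicate 3 were high for some pump probe sets and for many cerebellar and neuron marker genes. The Atp2b2 probe set 1420403_at read 9.23 and 9.32 on contralateral and ipsilateral array 3 and 8.61 to 8.94 on the other 4 arrays, and the Atp2a2 probe set 1427251_at read 7.20 and 7.45 against 6.84 to 7.05. Gabra6, the GABA-A receptor subunit of granule cells, read 10.81 and 11.24 on the same arrays and 10.41 to 10.55 on the others, and the transcription factor gene Neurod1 read 9.58 and 10.16 against 9.00 to 9.28. The same held for the Purkinje cell genes Pcp2 (9.27 and 8.48 against 7.26 to 7.96) and Pcp4 (12.47 and 12.55 against 12.09 to 12.13) and for the neuron marker Map2. In all, both arrays were the highest for 9 of 11 markers of cerebellar granule, Purkinje and cartwheel cells, while for Zic2 they were the lowest (4.98 and 4.94 against 5.35 to 5.53). Among the neuron markers both were the highest for 6 of 10 and the lowest for 1, so the pattern was not particular to the cerebellar list. The share over all probe sets was not counted. Over all 15298 probe sets tested, the deviations of both replicate 3 arrays from their side means correlated at 0.57. The counts therefore cannot be read as a trait of these markers. The brightest probe sets of Atp2b2 and Atp2a2 did not share this pattern, with contralateral array 1 at 10.99 and 12.52. The part of cerebellar cell content in these values was not tested.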
